A study of Homo sapiens with 2 samples.

Results

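Histone-modifying enzymes, their co-regulators and the enzymes of DNA methylation were followed through the FAIRE-seq peak lists of HepG2 cells with and without the orphan nuclear receptor NR2E3. The set held 57 genes in 7 classes, chosen by name: 9 histone acetyltransferases, 13 histone deacetylases, 5 co-regulators, 13 histone demethylases, 7 histone methyltransferases, 4 SWI/SNF chromatin remodellers and 6 genes of DNA methylation. A peak was assigned to a gene when the deposited annotation listed that gene as its nearest. Of 56159 listed peaks, 185 were listed under 38 of the 57 genes, and the other 19 genes had none.

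These proteins write, remove and read chemical marks on chromatin. Acetyltransferases such as CREBBP add acetyl groups to histone tails at active genes, and deacetylases take them off, usually inside large corepressor complexes that nuclear receptors and other factors recruit through scaffolds such as NCOR1 and RCOR1. Methyltransferases and demethylases set marks of active or silenced chromatin, SWI/SNF remodellers move nucleosomes with the energy of ATP, and DNMT and TET enzymes add and oxidise DNA methylation. In liver cancer, ARID1A, ARID1B and KMT2C are among the chromatin genes found mutated.

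FAIRE, formaldehyde-assisted isolation of regulatory elements, sequences the DNA left free of crosslinked protein, which comes mostly from open chromatin. It was applied to HepG2, an established human liver cancer line, after lentiviral delivery of a scrambled control hairpin RNA (control, CT in the study) or of a hairpin RNA against NR2E3 (NR2E3-depleted, KO II in the study). Both groups carried a lentiviral hairpin, and cells without virus were not analysed here. Each group had 1 library, so no difference between the conditions could be tested, there was no replicate check, and all intervals below are 95% intervals that cover counting error only. The lists held 14368 peaks common to both libraries, 16236 peaks specific to the control library and 25555 specific to the NR2E3-depleted library. Inferred depths were 24.6 M (mega) tags for the control and 19.7 M for the NR2E3-depleted library, a ratio of 0.802. Peaks were crowded on chromosomes 2, 6, 14, 16, 17 and 20, which held 65.8%, 81.6% and 65.9% of the common, control-specific and depleted-specific peaks. Of 9 hepatocyte marker genes, 8 had a listed peak and 6 (APOA1, APOB, FOXA1, FOXA2, HNF4A and SERPINA1) had a common promoter peak. Over all protein-coding genes, 51.4% had a listed peak and 14.5% a common promoter peak. All of the 6 but APOA1 lie on the crowded chromosomes. ALB and AFP had peaks only outside promoters, all specific to 1 library, and TTR had no peak. NR2E3 itself had 1 depleted-specific peak, centred at -9266 bp from its transcription start site (TSS), and no promoter peak; FAIRE does not measure its transcript, so the lists do not check the depletion.

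The set had 18 promoter peaks that were listed for only 1 library, 12 in the depleted-specific list and 6 in the control-specific list. The sequence at their centres is shown because these peaks carry the contrast between the libraries. Each line gives up to 50 bases on either side of the peak centre in hg38, plus strand, without bases that GENCODE annotates as untranslated. Capitals mark GGGCGG, the core of the Sp1 box, and CCAAT, the NFY box, on either strand, with overlapping matches counted. The centres of the DNMT1, ARID1B and DNMT3B peaks lay in annotated 5′ untranslated sequence and are not shown. The stretches at the depleted-specific promoter peaks were as follows.
ARID1A, chr1:26695543-26695643: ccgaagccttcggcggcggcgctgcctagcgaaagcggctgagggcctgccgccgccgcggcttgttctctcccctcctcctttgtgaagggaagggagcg
CREBBP, chr16:3880804-3880904: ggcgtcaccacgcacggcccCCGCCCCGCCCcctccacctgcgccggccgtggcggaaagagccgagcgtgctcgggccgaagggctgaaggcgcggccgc
HDAC1, chr1:32291888-32291988: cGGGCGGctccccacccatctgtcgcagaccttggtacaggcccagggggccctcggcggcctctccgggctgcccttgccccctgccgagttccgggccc
HDAC5, chr17:44123988-44124088: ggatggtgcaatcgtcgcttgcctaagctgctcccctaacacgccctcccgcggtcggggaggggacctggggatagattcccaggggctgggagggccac
KMT2A, chr11:118436128-118436228: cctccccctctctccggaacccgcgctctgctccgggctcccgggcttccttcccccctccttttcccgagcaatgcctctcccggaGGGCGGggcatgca
NCOR1, chr17:16215568-16215653: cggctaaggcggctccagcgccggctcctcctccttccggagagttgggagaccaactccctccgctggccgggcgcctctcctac
RCOR1, chr14:102592446-102592546: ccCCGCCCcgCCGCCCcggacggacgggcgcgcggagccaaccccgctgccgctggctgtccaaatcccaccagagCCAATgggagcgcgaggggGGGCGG
SETD2, chr3:47164114-47164174: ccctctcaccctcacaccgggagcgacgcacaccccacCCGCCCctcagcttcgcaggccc
SIRT6, chr19:4182581-4182681: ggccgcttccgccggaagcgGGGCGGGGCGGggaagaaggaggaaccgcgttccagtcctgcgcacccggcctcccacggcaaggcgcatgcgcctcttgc

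Those at the control-specific promoter peaks, printed in the same way, were the next 6.
DNMT3A, chr2:25252412-25252512: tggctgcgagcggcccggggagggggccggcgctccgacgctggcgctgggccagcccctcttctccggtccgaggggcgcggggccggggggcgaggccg
EZH1, chr17:42745060-42745160: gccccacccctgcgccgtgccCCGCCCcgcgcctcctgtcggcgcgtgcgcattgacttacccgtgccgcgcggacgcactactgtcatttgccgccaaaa
KAT5, chr11:65711879-65711979: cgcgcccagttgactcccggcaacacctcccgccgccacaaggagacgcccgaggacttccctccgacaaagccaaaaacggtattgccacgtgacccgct
KDM1A, chr1:23019390-23019442: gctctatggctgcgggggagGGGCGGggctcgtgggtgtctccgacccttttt
KDM2A, chr11:67118956-67119056: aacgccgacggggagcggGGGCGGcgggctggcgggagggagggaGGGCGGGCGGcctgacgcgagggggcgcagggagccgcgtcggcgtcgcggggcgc
NCOA3, chr20:47501208-47501308: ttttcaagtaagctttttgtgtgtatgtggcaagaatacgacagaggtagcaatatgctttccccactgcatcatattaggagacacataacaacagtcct

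Of the 15 stretches shown, 9 held the Sp1 core, 1 held CCAAT (RCOR1, beside 3 Sp1 cores), and 6 held neither. The 6 without a match were the depleted-specific stretches at ARID1A, NCOR1 and HDAC5 and the control-specific ones at DNMT3A, NCOA3 and KAT5. NCOA3 had the lowest G and C content of the 18 peaks, 42.8% of the 201 bases around the centre, and the highest, 82.1%, was at a depleted-specific peak.

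Promoter peaks were listed for 28 of the 57 genes. In the NR2E3-depleted library alone, 12 genes had a promoter peak (21.1%, 11.4 to 33.9%), against 11.7% of 20052 protein-coding genes. In the control library alone, 6 genes had one (10.5%, 3.96 to 21.5%), against 3.64% of protein-coding genes. In the common list 13 genes had one (22.8%, 12.7 to 35.8%), against 14.5%. The background shares for the depleted-specific and common lists lay inside the intervals of the set, and that for the control-specific list, at 3.64%, lay just under its lower bound. A peak of any class was listed for 66.7% of the set (52.9 to 78.6%) and for 51.4% of protein-coding genes. The latter share lay just under the interval. When any peak within 1000 bp of an annotated TSS was counted, whatever gene it was listed under, the numbers were 16 depleted-specific (28.1%, background 17.9%), 8 control-specific (14.04%, background 6.79%) and 19 common (33.3%, background 20.9%). By this count the background of the common list lay just under the interval of the set (21.4 to 47.06%). The backgrounds of the depleted-specific and control-specific lists lay inside theirs, close to the lower bounds. Within the gene body or 5000 bp of it, 47 genes (82.5%, 70.09 to 91.25%) held a peak. The share of protein-coding genes, 59.3%, lay below that interval. The background was not matched to the set for gene length or chromosome.

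**Figure D1:**
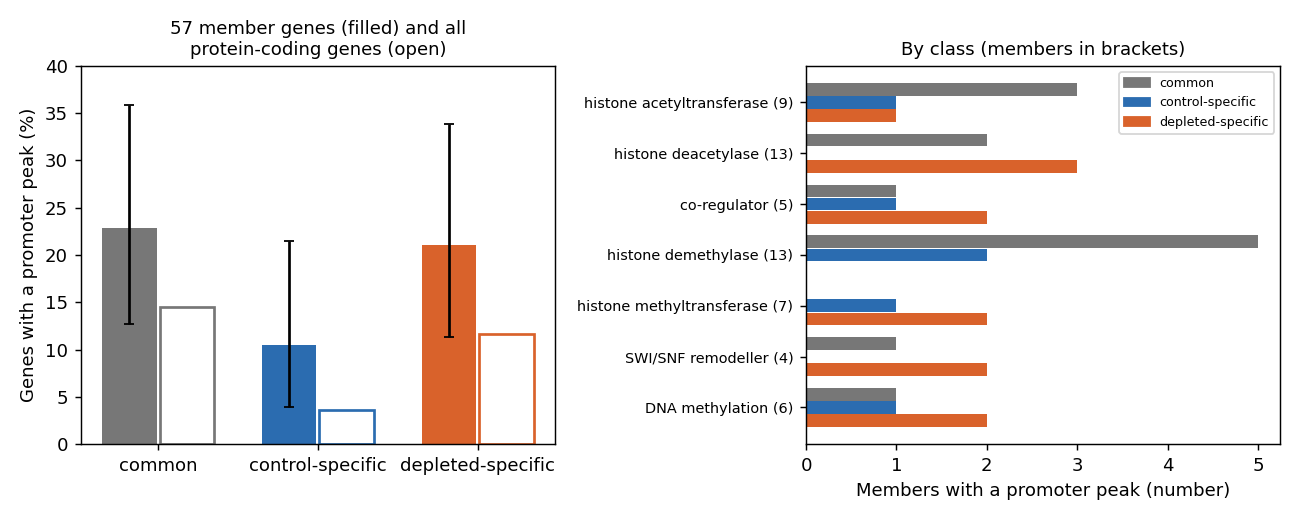
Share of genes with a promoter peak in each list (left, %, filled bars for the 57 genes with exact 95% intervals, open bars for all protein-coding genes) and number of genes with a promoter peak by class (right, class size in brackets). The intervals of the set hold the background share in the common and depleted-specific lists.

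By listed promoter class, 12 genes had a promoter peak in the depleted-specific list and in no other: CREBBP, HDAC1, HDAC5, SIRT6, NCOR1, RCOR1, SETD2, KMT2A, ARID1A, ARID1B, DNMT1 and DNMT3B. KAT5, KDM1A and EZH1 had one in the control-specific list and in no other. NCOA3, KDM2A and DNMT3A had one in the common and one in the control-specific list. A further 10 genes had a common promoter peak only: KAT6B, KAT7, KAT8, HDAC4, SIRT1, KDM1B, KDM3A, KDM4A, KDM4B and SMARCA2. KAT8 also had a control-specific peak 460 bp from an annotated TSS, which was not listed as a promoter peak. The 10 genes NCOA1, NCOA2, KDM2B, KDM4C, KDM6B, KMT2C, SMARCA4, TET1, TET2 and TET3 had distal peaks only. Distal here means any listed class other than promoter, so such a peak can lie near a start site. The nearest common peak was 28 bp from an annotated TSS for KDM4C, 39 bp for KDM6B and 84 bp for NCOA2. No gene of the set had peaks of the promoter class both in the depleted-specific list and in another list. How many of all protein-coding genes had both was not counted, so this is not a trait of the set. Counted within 1000 bp of an annotated TSS instead, 5 genes, HDAC5, KDM3A, KDM6B, ARID1A and ARID1B, had both a depleted-specific and a common peak, so the listed class alone did not show that the start sites of a gene lacked peaks of the other library.

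The specific promoter peaks were small. A peak score is a scaled number of sequence tags, and it was converted to tags by the step between scores. The 12 depleted-specific promoter peaks held 11 to 19 tags (median 12.5), the 6 control-specific ones 12 to 20 (median 15.5) and the 14 common ones, on the control scale, 13 to 27 (median 19.0). Over all promoter peaks the medians were 14, 15 and 17 tags. A peak of 11 tags has a 95% Poisson interval of 5.49 to 19.7 tags, which reaches the highest value among the depleted-specific promoter peaks. No tag number is listed for the library in which a specific peak is missing, so the size of a difference at any promoter could not be given. With only peaks of at least 15 tags counted, 3 genes kept a depleted-specific promoter peak (HDAC1, SIRT6 and KMT2A) and 4 a control-specific one (NCOA3, EZH1, KAT5 and KDM1A), a ratio of 0.750 (0.110 to 4.43). Over all promoter peaks of at least 15 tags the ratio was 2.405, with 1123 depleted-specific and 467 control-specific peaks.

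**Figure D2:**
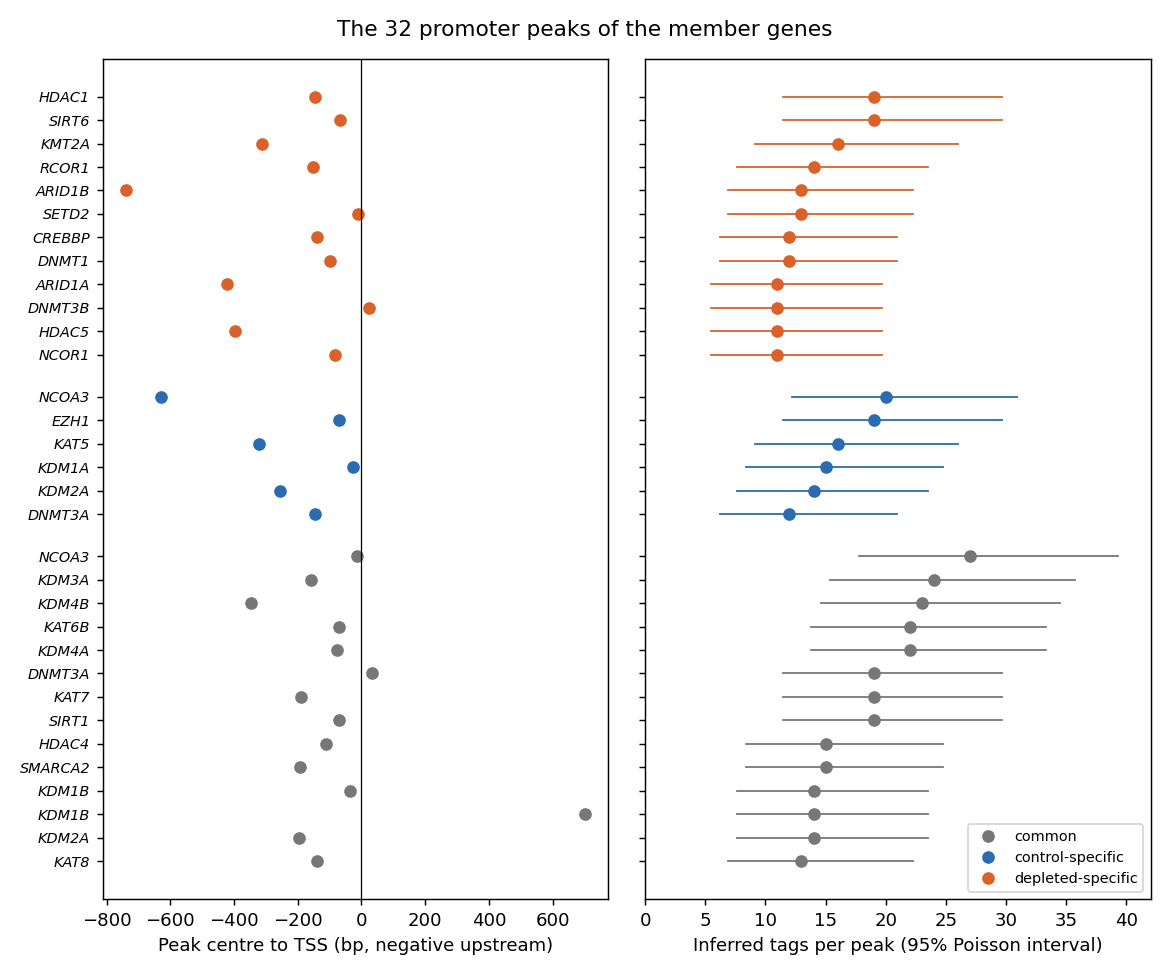
Distance of the peak centre from the TSS (left, bp, negative upstream) and inferred tags with 95% Poisson intervals (right) for the 32 promoter peaks, coloured by list. Most centres lay within 500 bp upstream of the TSS, and the tag intervals of the 3 lists overlapped widely.

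Among the histone acetyltransferases, 5 of 9 had a peak. CREBBP, which acetylates histone H3 at enhancers and promoters, had a depleted-specific promoter peak at chr16:3880704-3881004, centred 141 bp upstream of the TSS, with a score of 6.08 (12 tags). The nearest peak of the control library was 23350 bp away, a common peak in intron 1. KAT5, the catalytic subunit of the TIP60 complex, had a control-specific promoter peak at chr11:65711779-65712079, 323 bp upstream, with a score of 6.51 (16 tags), and no other peak. KAT6B, KAT7 and KAT8, of the MYST family, had common promoter peaks of 22, 19 and 13 tags. KAT7, which acts at replication origins, also held the common intronic peak at chr17:49788963-49789263, 432 bp inside the gene, with a score of 11.4 (28 tags). The KAT7 promoter peak also lies within 1000 bp of the TSS of FAM117A. A control-specific peak 2987 bp upstream of KAT6B (chr10:74822118-74822418, score 9.35, 23 tags) had the highest score of all control-specific distal peaks of the set. EP300, KAT2A, KAT2B and KAT6A had no peak under their names.

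The histone deacetylases had 8 peaks listed under 5 of 13 genes, and 27 peaks in their gene bodies or within 5000 bp when any listed name was counted. HDAC1, a class I enzyme at the centre of the SIN3, NuRD and CoREST complexes, had a depleted-specific promoter peak at chr1:32291788-32292088, 145 bp upstream, with a score of 9.63 (19 tags). SIRT6, an NAD-dependent deacetylase of chromatin, reached the same score and tag number at chr19:4182481-4182781, 68 bp upstream. That peak is also within 1000 bp of the TSS of ANKRD24, and the lists cannot assign it to either gene. HDAC5, a class IIa enzyme, had a weaker depleted-specific peak at chr17:44123888-44124188, 397 bp upstream, with a score of 5.58 (11 tags), and common peaks 3451 and 8823 bp upstream. A common peak of 16 tags, listed under LOC105371789, lay 179 bp from another annotated HDAC5 TSS, so start sites of HDAC5 had peaks in both libraries. HDAC4, another class IIa enzyme, and SIRT1, the best studied sirtuin, had common promoter peaks of 15 and 19 tags. HDAC1 also held a control-specific intronic peak of 13 tags, 19778 bp downstream of the TSS. No deacetylase had a control-specific promoter peak, beside 3.64% of protein-coding genes, and HDAC2, HDAC3, HDAC6, HDAC7, HDAC8, HDAC9, HDAC10 and HDAC11 had no peak under their names. HDAC9, at 915.5 kb the longest gene of the set, was among those without any.

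All 5 co-regulators had peaks. NCOR1, the corepressor scaffold that holds HDAC3, had 1 peak under its name, a depleted-specific promoter peak at chr17:16215468-16215768, 84 bp upstream. It had a score of 5.58 (11 tags) and the nearest control peak was 70446 bp away. A common peak of 16 tags inside NCOR1, listed under TTC19, lay 1461 bp from another annotated NCOR1 TSS. RCOR1, which joins KDM1A and HDAC1 in the CoREST complex, also had 1 peak under its name, a depleted-specific promoter peak at chr14:102592346-102592646, 153 bp upstream, with a score of 7.10 (14 tags). Of these 3 partners of the CoREST complex, RCOR1 and HDAC1 had depleted-specific promoter peaks and KDM1A a control-specific one. NCOA3, a coactivator of nuclear receptors, had a common promoter peak at chr20:47501723-47502023, 14 bp upstream, with the highest score of any promoter peak in the set (11.0, 27 tags). A control-specific promoter peak lay 615 bp from it at chr20:47501108-47501408, 629 bp upstream, with a score of 8.13 (20 tags). It was the only one of the 18 specific promoter peaks of the set within 1000 bp of a peak of the other library. Over all promoter peaks, 27.1% of those specific to control and 11.7% of those specific to depletion were that close. NCOA1 and NCOA2 are coactivators of the same family. NCOA1 had 3 control-specific and 2 depleted-specific distal peaks, and NCOA2 2 common intronic peaks, 887 and 70582 bp downstream of the TSS.

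Of the 13 histone demethylases, 9 had a listed peak. KDM1B, KDM2A, KDM3A, KDM4A and KDM4B had common promoter peaks, and KDM1A and KDM2A control-specific ones. None of the 13 had a peak of the promoter class in the depleted-specific list, beside 11.7% of protein-coding genes, but within 1000 bp of an annotated TSS 3 had a depleted-specific peak (23.1%, background 17.9%): KDM3A at 751 bp, KDM5A at 267 bp and KDM6B at 315 bp. The strongest common promoter peak of the class was that of KDM3A, which removes methyl groups from lysine 9 of histone H3 (24 tags, 158 bp upstream). The common promoter peaks of KDM4B and KDM4A, which act on the same residue, held 23 and 22 tags. KDM1A, the flavin-dependent demethylase LSD1, had its only peak in the control library at chr1:23019290-23019590, 28 bp upstream, with a score of 6.10 (15 tags). That peak is also within 1000 bp of the TSS of TEX46. KDM2A, which binds unmethylated CpG islands, had a control-specific peak at chr11:67118856-67119156, 257 bp upstream of its first TSS, and a common peak at chr11:67239667-67239967, 197 bp upstream of an internal TSS, both with a score of 5.69 (14 tags). Of the 2 common promoter peaks under KDM1B, the nuclear homologue of LSD1, one was 35 bp upstream of the KDM1B TSS and the other was annotated to a transcript of the neighbouring gene TPMT. KDM3A also held a depleted-specific intronic peak at chr2:86442596-86442896, 1285 bp downstream of the TSS, with a score of 9.13 (18 tags). KDM4C had 2 common and 4 depleted-specific distal peaks, and its peak 276 bp downstream of a TSS was classed as non-coding exon, not promoter. KDM6B, which demethylates the Polycomb mark, had 5 distal peaks and KDM2B 2. KDM5A, KDM5B, KDM5C and KDM6A had no peak under their names.

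**Figure D3:**
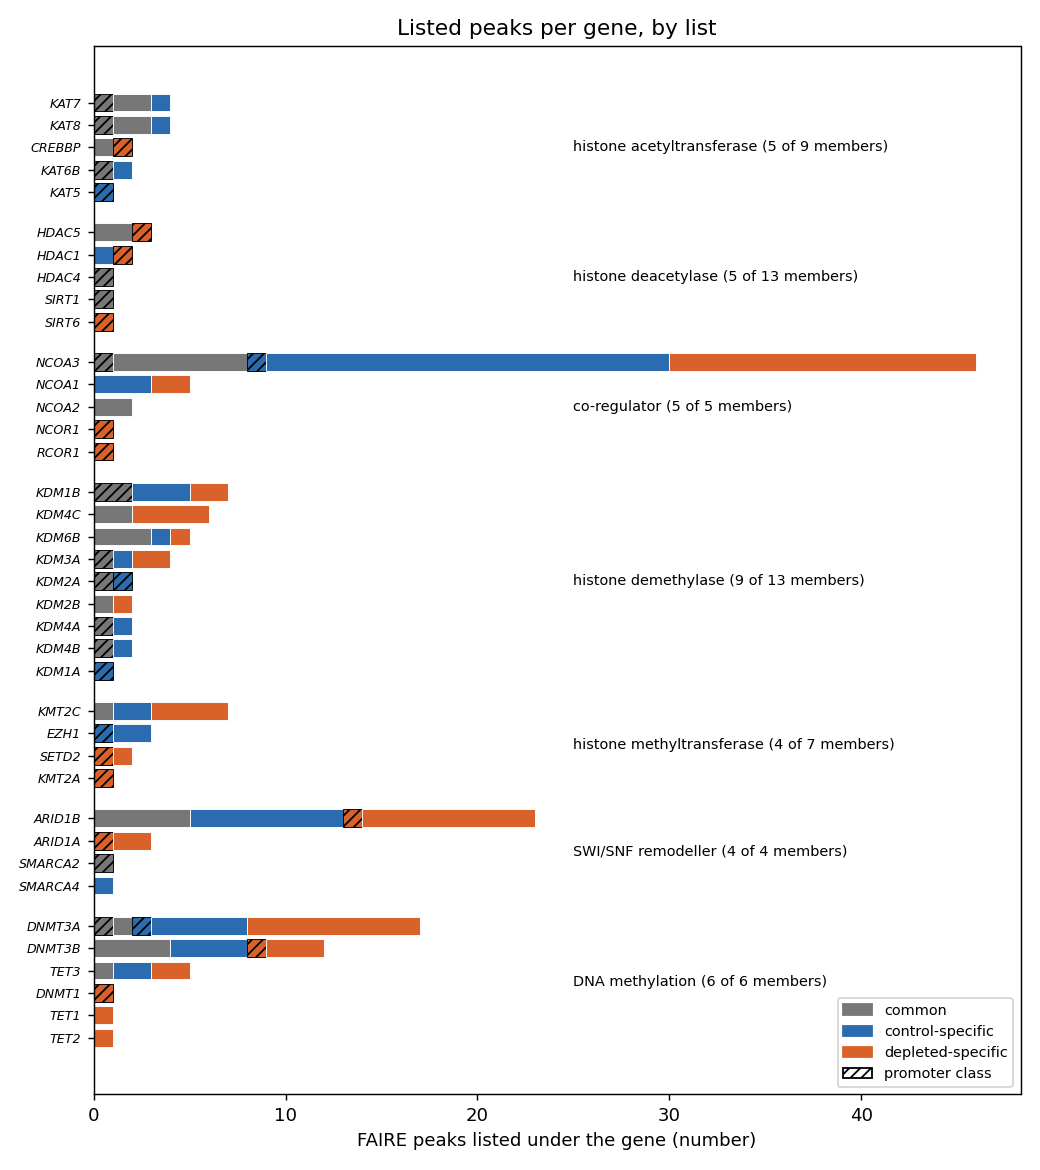
Number of FAIRE peaks listed under each of the 38 genes with a peak, coloured by list, with promoter peaks hatched. NCOA3 with 46, ARID1B with 23, DNMT3A with 17 and DNMT3B with 12 peaks stood apart from the rest, which had 1 to 7.

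Of the histone methyltransferases, 4 of 7 had peaks. KMT2A, the MLL protein that methylates lysine 4 of histone H3, had 1 depleted-specific promoter peak at chr11:118436028-118436328, 312 bp upstream, with a score of 8.11 (16 tags). SETD2, which trimethylates lysine 36 in transcribed genes, had one at chr3:47163974-47164274, 11 bp upstream, with a score of 6.59 (13 tags) and the nearest control peak 130903 bp away. EZH1, a catalytic subunit of Polycomb repressive complex 2, had 3 peaks under its name, all control-specific, and the promoter peak at chr17:42744960-42745260, 70 bp upstream, had a score of 7.73 (19 tags). Intronic peaks of EZH1 listed under MIR6780A included a depleted-specific one of 14 tags at chr17:42721009-42721309 and a control-specific one of 15 tags. EZH2, the other catalytic subunit, had no peak under its name, and neither had KMT2D or KMT2E. In the gene body or within 5000 bp of it, KMT2D held 1 and KMT2E 3 peaks listed under other names. KMT2C, which marks enhancers, was listed with 1 common peak, 2 in the control library alone and 4 after depletion alone, all intronic and 29.5 to 94.5 kb downstream of the TSS. Within them, a control-specific and a depleted-specific peak were 533 bp apart.

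The SWI/SNF genes all had peaks. ARID1B, a DNA-binding subunit of the BAF complex, had a depleted-specific promoter peak at chr6:156776966-156777266, 739 bp upstream, with a score of 6.59 (13 tags). A common peak lay 100 bp from another annotated ARID1B TSS. ARID1A, a close relative of ARID1B, had 3 depleted-specific peaks and no other under its name. Its promoter peak was at chr1:26695443-26695743, 422 bp upstream, at a score of 5.58 (11 tags). Common peaks of 19 and 16 tags and a control-specific peak of 15 tags lay within 1000 bp of another annotated ARID1A TSS and were listed under the non-coding gene LOC101928728. The control-specific one was 1414 bp from the ARID1A promoter peak, so the region near the ARID1A start sites held peaks in both libraries. SMARCA2, an ATPase of the complex, had 1 common promoter peak (15 tags, 193 bp upstream), and SMARCA4, the alternative ATPase, 1 control-specific intronic peak of 13 tags.

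All 6 genes of DNA methylation had peaks. DNMT1, the maintenance methyltransferase, had 1 peak under its name, a depleted-specific promoter peak at chr19:10194901-10195201, 98 bp upstream, with a score of 6.08 (12 tags). DNMT3B, a de novo methyltransferase, had a depleted-specific promoter peak at chr20:32762260-32762560, 25 bp downstream of the TSS, with a score of 5.58 (11 tags) and the nearest control peak 4166 bp away. DNMT3A, the other de novo enzyme, had a common promoter peak at chr2:25342408-25342708, 32 bp downstream of an upstream TSS, with a score of 7.73 (19 tags). Its control-specific promoter peak at chr2:25252312-25252612 (score 4.88, 12 tags) belonged to an internal TSS, 147 bp upstream of it. The TET dioxygenases, which oxidise 5-methylcytosine, had no promoter peak. TET1 and TET2 each had 1 depleted-specific intronic peak, of 18 and 11 tags, and TET3 had 5 peaks over the 3 lists.

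Distal peaks made up 153 of the 185, with 107 in introns, 40 between genes, 4 at transcription termination sites and 1 each in an exon and a non-coding exon. They were concentrated in a few genes. NCOA3 alone held 24.9% of all peaks of the set, in 8 common, 22 control-specific and 16 depleted-specific peaks spread from -42.8 to 141.5 kb around its TSS. Its common distal peaks at chr20:47464537-47464837, 37200 bp upstream (score 14.2, 35 tags), and chr20:47576636-47576936, 74899 bp downstream (score 12.2, 30 tags), had the highest scores in the set. The control-specific peak at chr20:47460989-47461289, 40748 bp upstream, had a score of 7.73 (19 tags) and the depleted-specific peak at chr20:47568050-47568350, 66313 bp downstream, 8.62 (17 tags). Control-specific and depleted-specific peaks were interspersed along the locus, and 6 of the 38 specific ones lay within 1000 bp of a peak of the other library.

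ARID1B held 5 peaks in the common list, 8 in the control-specific and 10 in the depleted-specific one, from -160.7 to 141.4 kb around the nearest of its start sites, 16 of 23 of them intronic. DNMT3A had 2, 6 and 9. All 9 depleted-specific peaks were upstream of the nearest listed start site, from -139.3 to -9.95 kb. Those at chr2:25282753-25283053 and chr2:25288476-25288776 lay inside the gene, upstream of an internal TSS. Those from chr2:25384052 to chr2:25481991 lay beyond the gene, at the termination site or in introns of other transcripts. So did the common peak at chr2:25376696-25376996 and the control-specific peaks at chr2:25403436-25403736 and chr2:25460422-25460722. Nearness alone put these peaks under DNMT3A. A further 2 depleted-specific peaks in DNMT3A introns were listed under MIR1301. DNMT3B had 4 in each list, within -8.37 to 13.9 kb, and KDM1B 2, 3 and 2, its 5 distal peaks all intronic and 5832 to 54518 bp downstream of the TSS. The highest depleted-specific distal scores of the set were those of TET1 at chr10:68600320-68600620, 40133 bp downstream of the TSS, and of the KDM3A peak described above, both 9.13 (18 tags). Behind KAT6B and NCOA3, 6 control-specific distal peaks shared a score of 6.91 (17 tags). They lay at chr20:32766426-32766726 (DNMT3B), chr2:74048521-74048821 (TET3), chr20:47594140-47594440 (NCOA3), chr6:18174997-18175297 and chr6:18209790-18210090 (both KDM1B) and chr7:152403697-152403997 (KMT2C).

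**Figure D4:**
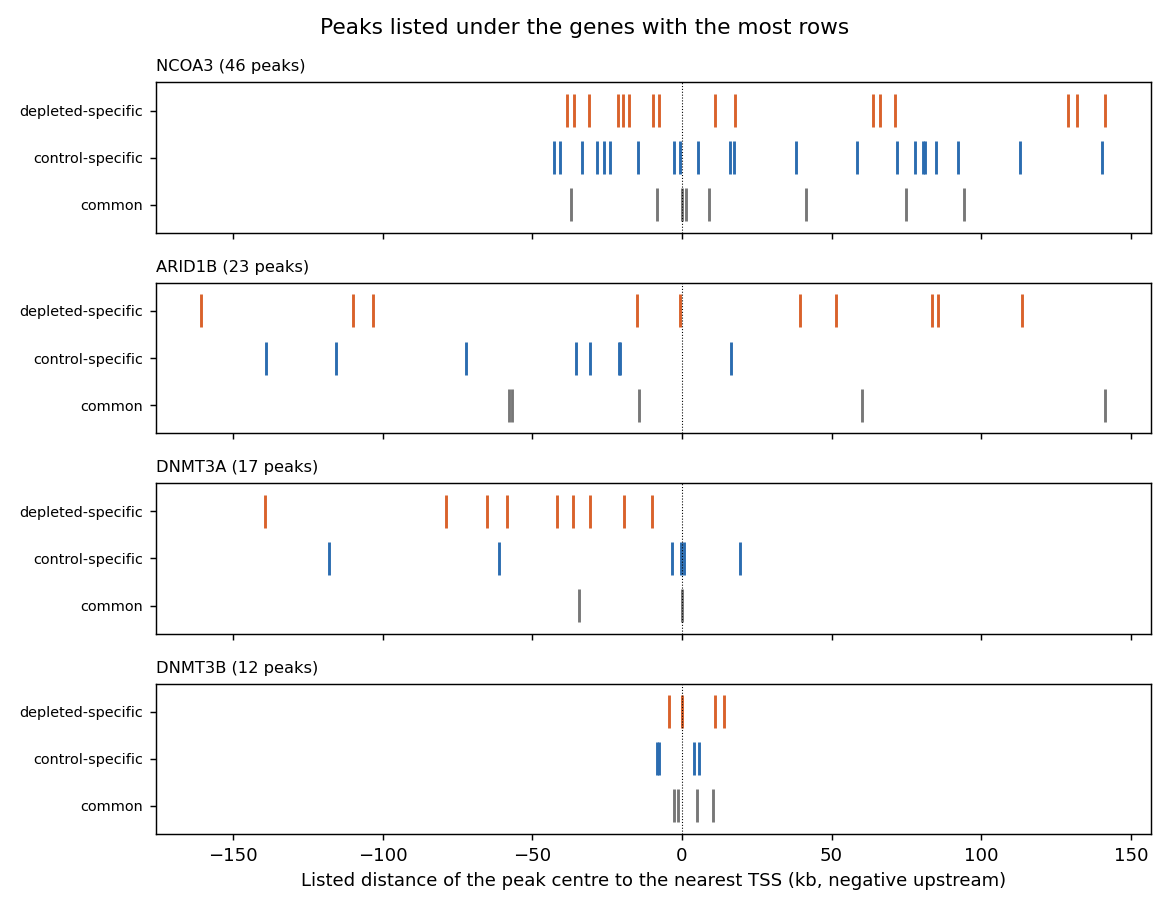
Listed distance of each peak centre to the nearest TSS of the gene (kb, negative upstream) for the 4 genes with the most peaks, 1 row per list. The 9 depleted-specific peaks of DNMT3A all lie upstream of the nearest listed TSS, some inside the gene and others in transcripts beyond it. Those of NCOA3 lie on both sides among control-specific peaks.

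Of the 6 genes with the most peaks, NCOA3, ARID1B, DNMT3A, DNMT3B and KDM1B lie on the crowded chromosomes, while KMT2C, with 7 peaks like KDM1B, lies on chromosome 7. The crowded chromosomes held 19 of the 57 genes and 143 of the 185 peaks. Of those 19 genes 17 had a peak (89.5%, against 71.6% of protein-coding genes there), and of the other 38 genes 21 had one (55.3%, against 43.95%). The crowded chromosomes also held 6 of the 12 depleted-specific promoter peaks of the set and 3 of the 6 control-specific ones, beside 31.9% of all promoter peaks specific to the NR2E3-depleted library and 49.6% of those specific to control. The 4 genes on the X chromosome, HDAC6, HDAC8, KDM5C and KDM6A, had no peak. The nearest common peak was at least 13880583 bp from a TSS of these genes, and the nearest control-specific peak at least 1074790 bp. The share of all genes on the X chromosome with a peak was not counted, so their absence cannot be read as a trait of the set. Copy number of the chromosomes was not analysed here and its part in the peak numbers was not tested.

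The set had 72 depleted-specific against 65 control-specific peaks, a ratio of 1.11 (0.781 to 1.57), while all peaks gave 1.57 (1.54 to 1.61). At promoters the ratio was 2.00 (0.695 to 6.50) for the set and 3.15 for all promoter peaks, and at distal sites 1.02 and 1.48. Without NCOA3 the ratio of the set was 1.30 (0.860 to 1.99). On the crowded chromosomes it was 0.946 for the set and 1.27 for all peaks, and on the others 2.00 (0.894 to 4.79) and 2.92. The direction depended on the unit of the threshold: peaks with a score of at least 6 gave 2.29 for the set and 2.61 for all peaks, whereas peaks of at least 15 tags gave 0.542 (0.253 to 1.11) and 0.707. By gene, depleted-specific peaks were more numerous for 17 genes, control-specific peaks for 13, and the numbers were equal for 8. The same count over all genes was not made, so these numbers have no background. The share of peaks at promoters in the set was 29.2% in the common, 9.23% in the control-specific and 16.7% in the depleted-specific list, beside 24.0%, 5.54% and 11.1% of all peaks.

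A missing listing under a gene's name did not always mean that no peak was near. In the bodies of 31 genes of the set, or within 5000 bp of them, 77 further peaks were listed under other names, 15 common, 21 control-specific and 41 depleted-specific. HDAC4, with 1 peak of its own, held 12 of these in its body, listed under microRNA or non-coding genes inside it. Among the 19 genes without a peak, 9 held such a peak. HDAC11 had a depleted-specific peak 59 bp from a TSS, listed under HDAC11-AS1 (12 tags). KDM5A, a demethylase of lysine 4, had one 267 bp from a TSS, listed under CCDC77 (10 tags). KDM5B, of the same family, had one 2266 bp away under PCAT6 (17 tags), and KMT2E one 1128 bp away under KMT2E-AS1 (15 tags). EP300, the paralogue of CREBBP, had a control-specific peak 1007 bp from its TSS, listed under MIR1281 (15 tags). A depleted-specific peak of 23 tags in the last exon of KAT6A was listed under ANK1. Apart from HDAC11 and KDM5A, the genes without a peak (17 of 19) had no listed peak within 1000 bp of a TSS, and since the lists hold only peaks past a threshold this does not show that their promoters were closed.

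Sp1 and NFY boxes were counted within 100 bp of the peak centre. GGGCGG was found in 9 of 14 common (64.3%), 4 of 6 control-specific (66.7%) and 8 of 12 depleted-specific promoter peaks of the set (66.7%, 34.9 to 90.1%). Over all promoter peaks the shares were 55.7%, 38.0% and 56.4%. CCAAT was found in 7 of the 14 promoter peaks of the set in the common list, in 1 of 6 in the control-specific list and in 2 of 12 in the depleted-specific list, against 42.2%, 27.4% and 32.6% of all promoter peaks. The KLF boxes CCACACCC or CCACGCCC, neither of which contains the Sp1 core, were found in 3, 0 and 1, beside 8.24%, 5.78% and 6.84% of all promoter peaks. The median G and C content of the 201 bases was 65.4% in common, 71.4% in control-specific and 71.4% in depleted-specific peaks of the set, and 62.7%, 57.7% and 64.7% over all. In the RefSeq promoter sequences (GRCh38.p14, 300 bases), which 53 of the 57 genes matched, GGGCGG stood in 61.5% of those with a promoter peak and 63.0% of those without, beside 58.5% of 15842 protein-coding genes. A match is a run of letters and not a measured binding site.

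A list of 88 partner genes of the same machinery, such as complex subunits and related enzymes, was counted in the same way. Promoter peaks were depleted-specific for 21 of them (23.9%), control-specific for 7 (7.95%) and common for 18 (20.5%), beside 11.7%, 3.64% and 14.5% of protein-coding genes, and 56 had a peak of any class. Subunits of SWI/SNF had depleted-specific promoter peaks for 5 of 13 genes (ACTL6A, DPF2, SMARCC1, SMARCD1 and SMARCE1) and a control-specific one for SMARCE1. Genes of deacetylase complexes had 5 of 18 (MTA2, RCOR3, SIRT5, SIRT7 and TBL1X) and no control-specific one. Partner demethylases had 3 of 7 in the common list and 1, PHF8, in the depleted-specific list.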

How the data were processed

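FAIRE-seq peak lists came from 1 control and 1 NR2E3-depleted library of HepG2 cells, grouped by the treatment in the labels. The authors trimmed reads with Trimmomatic 0.39 and aligned them to hg38 with Bowtie2 2.4.5. They called and annotated peaks with HOMER, at a q-value threshold of 0.05 per the study's methods, and deposited common, control-specific and depleted-specific lists. How these were told apart, and whether copy number or input was corrected for, is not given in the sources used here.

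The deposited score is the authors' scaled tag number. Below 10, every score was a whole multiple of a fixed step (tolerance 0.0051), which was 0.407 for the control-specific list, 0.407 for the common list and 0.507 for the depleted-specific list. Tags are score divided by step. Depths assume a scale of 10 M (mega) tags, which is not stated. Common peaks carry control scores, so what they scored after depletion was not analysed here.

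Peaks were taken by listed gene name, class and distance as the authors annotated them. A further 93 peaks had no gene name. Backgrounds used 20052 RefSeq protein-coding symbols (96.6% of 10676 such listed names matched) and GENCODE release 44 start sites. Shares carry exact Clopper-Pearson intervals, ratios exact binomial intervals and tags Poisson intervals, all at 95%. A single library per condition allowed no test, and no p-value is given. The genes, classes, partner list, markers and alternatives were chosen with earlier results of these data known. A further marker is not reported here. All 57 genes are named. Positions are given for each specific promoter peak, for each gene with promoter peaks in several lists and for the 3 highest distal scores per list with ties. The 6 genes with the most peaks are given by counts and distance ranges. The scripts, in Python 3.11.15 with scipy 1.17.1 and pysam 0.24.0, were tested on simulated lists.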

Additional observations from a re-analysis of the deposited data

How the results depend on the processing

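Of 78 values recomputed under alternatives, 57 stayed inside the counting interval of the reported value or moved by at most 1.5 times, and 21 moved further. The 78 include CCAAT and KLF shares set beside the Sp1 share. They also include settings that could not change a value, such as leaving out NCOA3 for depleted-specific promoters. The tally is therefore not a measure of robustness. Without chromosomes 2, 6, 14, 16, 17 and 20, promoter peaks were common for 6, control-specific for 3 and depleted-specific for 6 genes, 21 genes had any peak, the ratio of depleted-specific to control-specific peaks was 2.00, and promoter shares were 50%, 30% and 30%, with fewer genes by construction. With promoters taken as within 3000 bp of the TSS, 10 genes had a control-specific promoter peak, and promoter shares were 47.9% in the common and 20% in the control-specific list. Peaks with a score of at least 6 gave a ratio of 2.29. Peaks of at least 15 tags, an alternative chosen after seeing the data, gave a ratio of 0.542, below 1, and 3 genes with a depleted-specific promoter peak. A score of 6 is reached with fewer tags in the NR2E3-depleted than in the control library. With the longer Sp1 box GGGGCGGGG, shares were 0.0%, 33.3% and 33.3% in the common, control-specific and depleted-specific lists, beside 16.3%, 12.2% and 20.05% of all promoter peaks. CCAAT gave 16.7% in the control-specific and 16.7% in the depleted-specific list, and the KLF boxes 21.4%, 0.0% and 8.33%. Leaving out a replicate could not be done, since either condition had only 1 library. No paired analysis was possible because the labels give no replicate numbers and neither condition was repeated. Most specific peaks of the set held fewer than 20 tags, and how the lists change with depth was not tested.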
